A study of Arabidopsis thaliana with 8 samples.

Results

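The gibberellin receptors and oxidases described here are 10 Arabidopsis thaliana genes. They were chosen by locus from the 27197 loci measured, with earlier results of these data known. They are the 3 receptors GID1A (AT3G05120), GID1B (AT3G63010) and GID1C (AT5G27320), the GA 20-oxidase genes GA20OX1 (AT4G25420) and GA20OX2 (AT5G51810), the GA 3-oxidase gene GA3OX1 (AT1G15550), and the GA 2-oxidase genes GA2OX1 (AT1G78440), GA2OX2 (AT1G30040), GA2OX6 (AT1G02400) and GA2OX8 (AT4G21200). All 10 were found in every file. RNA of carpels, the organs that form the pistil, was sequenced in 8 libraries of the ecotype Columbia. The 35S:NGA group, an overexpression line with 3 libraries, carries a NGATHA gene behind the 35S promoter, a viral promoter active in most plant tissues, and its label does not say which of the NGATHA genes is driven. The nga group, also with 3 libraries, is labelled nga 1/2/3/4, and the labels used here do not give its alleles. WT, the wild type, had 2 libraries. Carpels of all groups were taken by hand from 15 inflorescences per sample, at floral stages 8 to 13, from soil-grown plants in long days.

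Gibberellins are growth hormones that the soluble GID1 receptors bind in the nucleus. A receptor with bound hormone attaches to DELLA proteins, which hold back growth, and marks them for degradation. The 20-oxidases and then the 3-oxidases make the bioactive hormone, while the 2-oxidases remove it or its precursors, and several of these genes are known to respond to gibberellin themselves through feedback. In the pistil, the pathway is known for the growth of the ovary into a fruit after fertilisation.

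The 300 bases before the annotated start are given for GID1A and GID1B, receptors of partly redundant function with unequal levels here, and for GA2OX8, the member whose read number differed most between the groups in relative terms. They were read from the RefSeq genome TAIR10.1, 5′ to 3′ on the strand of the gene, which is the plus strand for each of them. The windows are chr3:1430063-1430362 for GID1A, chr3:23288943-23289242 for GID1B and chr4:11302382-11302681 for GA2OX8. Capitals mark TAACAA, the core of the gibberellin response element, which reads TTGTTA where it lies on the other strand.
GID1A: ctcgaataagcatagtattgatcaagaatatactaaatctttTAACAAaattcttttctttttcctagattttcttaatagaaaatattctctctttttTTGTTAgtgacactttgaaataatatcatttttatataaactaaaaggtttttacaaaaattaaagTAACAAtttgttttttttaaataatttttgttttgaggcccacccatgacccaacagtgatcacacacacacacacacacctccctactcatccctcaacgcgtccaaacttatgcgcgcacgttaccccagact
GID1B: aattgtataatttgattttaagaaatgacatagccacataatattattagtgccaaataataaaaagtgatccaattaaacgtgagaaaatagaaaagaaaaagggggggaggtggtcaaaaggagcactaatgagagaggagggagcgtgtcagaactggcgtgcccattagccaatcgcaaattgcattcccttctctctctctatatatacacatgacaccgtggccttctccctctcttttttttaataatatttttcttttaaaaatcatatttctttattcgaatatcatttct
GA2OX8: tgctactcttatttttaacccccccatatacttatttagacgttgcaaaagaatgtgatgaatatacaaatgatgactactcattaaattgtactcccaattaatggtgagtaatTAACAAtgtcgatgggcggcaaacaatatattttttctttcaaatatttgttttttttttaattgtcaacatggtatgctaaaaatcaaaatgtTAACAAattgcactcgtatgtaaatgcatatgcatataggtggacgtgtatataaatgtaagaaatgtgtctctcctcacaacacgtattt

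TAACAA stood in 2 of these 3 windows, and in 36.05% of the windows of all 27443 genes searched. The 3 windows were picked, that of GA2OX8 for its read numbers, so their share is no measure of enrichment over all genes. GID1A held 3 matches, whose first bases lay at -258, -201 and -135 from the start, and GA2OX8 held 2 matches at -185 and -91. No match was found in the GID1B window. The other motifs searched, on both strands and with none of them overlapping TAACAA in sequence, were CACCTG (a RAV-type element bound by B3-domain proteins), the G-box CACGTG and AATATCT (the core of the evening element). They were in 3.105%, 7.087% and 11.78% of all windows, and in none of these 3 windows. A match is a run of letters, and its absence says only that these letters are not in the window.

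The libraries held 23.1 M to 38.3 M mapped reads, as recovered from the steps between low values. RPKM gives reads per kilobase of gene and per M of mapped reads. Of the NGATHA genes, NGA3 stood at 102 to 166 RPKM in 35S:NGA and at 4.81 to 5.47 RPKM in WT, and NGA4 at 0.123 to 0.248 RPKM in nga and 3.83 to 3.97 RPKM in WT. NGA1 and NGA2 transcripts were still present in nga, at 21.2 to 25.6 and 7.73 to 14.9 RPKM, against 23.5 to 23.9 and 8.15 to 9.50 RPKM in WT. In 35S:NGA, NGA1 stood at 12.9 to 21.4, NGA2 at 5.78 to 8.88 and NGA4 at 3.68 to 4.56 RPKM. NGA3 was thus the only NGATHA gene with every 35S:NGA library above WT. The 8 carpel and ovule markers were all detected, with summed levels of 386 to 461 RPKM in 35S:NGA, 409 to 488 RPKM in nga and 378 to 383 RPKM in WT. Single markers moved apart within that sum. CRC was at 7.39 to 19.2 RPKM in 35S:NGA, 26.6 to 60.5 RPKM in nga and 29.6 to 41.7 RPKM in WT, and SPT at 53.4 to 67.4 RPKM in 35S:NGA, 36.8 to 45.1 RPKM in nga and 30.9 to 31.1 RPKM in WT. The file headers place 35S:NGA 1 and 2 in sequencing lane 7, the third library of 35S:NGA and of nga in lane 8, and nga 1 and 2 together with both WT libraries in lane 6. No lane held both 35S:NGA and WT, so a fit with lane as a term links them only by way of nga. In that fit 0 members were called by limma in 35S:NGA versus WT, and its share of all genes called is not given. Without the lane term 0.152% of all genes were called, so the 0 is no result about the members. The titles number the replicates without naming separate plants, so that p-values cover the spread between these samples alone, and that spread may be technical.

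By RPKM, which is per length, the members fell into an abundant and a scarce set. Averaged in WT, GID1A stood at 23.3 ± 1.72, GA2OX2 at 20.7 ± 10.2 and GA20OX2 at 18.5 ± 1.96 RPKM (SD, n = 2). GA2OX2 could not be ordered among these 3 because of its spread. GID1B followed at 7.00 ± 0.900 and GID1C at 4.44 ± 1.36 RPKM, whose libraries did not overlap. GA2OX6 at 1.78 ± 0.116, GA2OX1 at 1.67 ± 0.675, GA3OX1 at 1.13 ± 0.285 and GA2OX8 at 1.06 ± 0.436 RPKM lay close together, and their ranges overlapped from one neighbour to the next. GA20OX1 was the lowest at 0.222 ± 0.0225 RPKM. In 35S:NGA the order changed at its lower end, where GA2OX8 averaged 0.0298 ± 0.0269 RPKM, below the 0.317 ± 0.231 RPKM of GA20OX1 (n = 3). In nga, GID1C at 18.9 ± 7.34 RPKM stood above GID1B at 10.3 ± 3.72 RPKM.

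**Figure D1:**
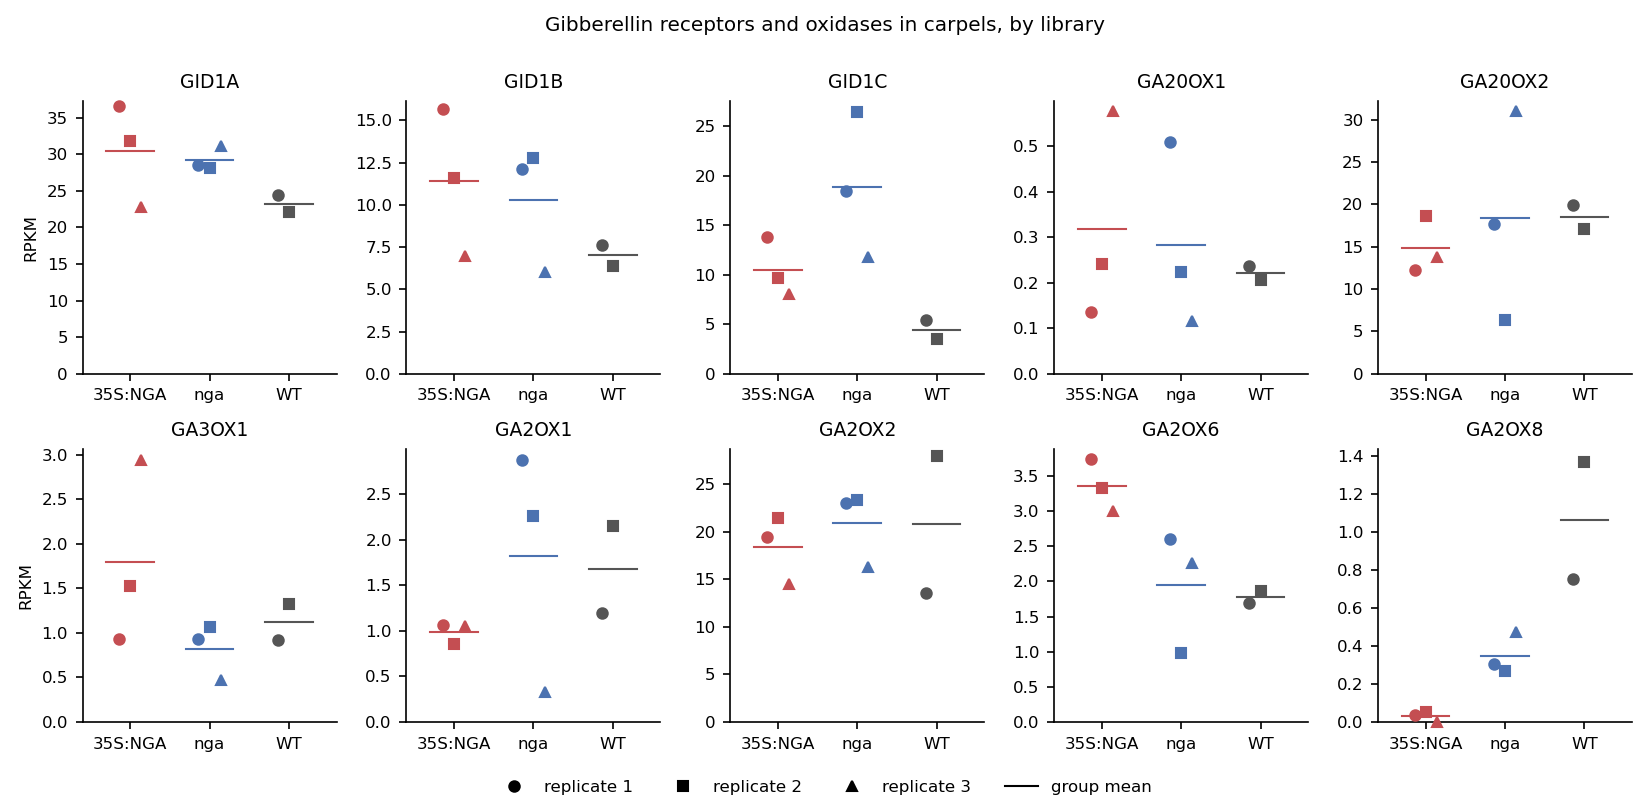
RPKM of each of the 10 members in carpels, with 1 point per library, the replicate number as the marker shape and the group mean as a line, each panel on its own axis from 0. GID1C stood at 11.8 to 26.4 RPKM in nga and 3.48 to 5.39 RPKM in WT, and GA2OX8 at 0 to 0.0525 RPKM in 35S:NGA and 0.754 to 1.37 RPKM in WT.

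Of the receptors, GID1C was higher in nga than in WT by 1.83 on the log2 scale, about 3.54-fold, and was the only member past the threshold in any comparison after the filter on low values. GID1A and GID1B did not pass it. Each test used limma on log2(RPKM + 1) over the 17786 genes with at least 1 RPKM in 2 or more libraries, with Benjamini-Hochberg adjustment over all of them, and called a gene at an adjusted p under 0.05. Fold changes on this scale understate those of scarce genes. In whole carpels, fewer cells of a type and less RNA per cell cannot be told apart.

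GID1C had 13.8, 9.67 and 8.06 RPKM in 35S:NGA 1, 2 and 3, 18.5, 26.4 and 11.8 RPKM in nga 1, 2 and 3, and 5.39 and 3.48 RPKM in WT 1 and 2. All 6 libraries of 35S:NGA and nga were thus above both WT libraries, while nga 3 lay below 35S:NGA 1. In nga versus WT the difference was 1.83 ± 0.34 on the log2 scale (SE; 95% interval 1.05 to 2.60), with a limma adjusted p of 0.0184. In 35S:NGA versus WT it was 1.07 ± 0.34 (0.30 to 1.85; limma adjusted p = 0.163), and in 35S:NGA versus nga it was -0.75 ± 0.30 (-1.45 to -0.06; limma adjusted p = 0.175), neither past the threshold. Within lane 6, which held nga 1, nga 2 and both WT libraries, the nga versus WT difference was 2.11 with a limma adjusted p of 0.00977. The call was lost when WT 1 (limma adjusted p = 0.0802), WT 2 (0.184) or nga 1 (0.0575) was left out, with differences of 2.08, 1.57 and 1.81.

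GID1A, the most abundant receptor, had 36.6, 31.8 and 22.8 RPKM in 35S:NGA, 28.5, 28.1 and 31.2 RPKM in nga, and 24.5 and 22.0 RPKM in WT. Every nga library was above both WT libraries, and 35S:NGA 3 lay between the 2 WT libraries. The differences of 0.32 ± 0.19 in nga (-0.11 to 0.75; limma adjusted p = 0.252) and 0.35 ± 0.19 in 35S:NGA (-0.08 to 0.78; limma adjusted p = 0.325), both against WT, did not pass the threshold. Between 35S:NGA and nga it was 0.03 ± 0.17 (-0.36 to 0.42; limma adjusted p = 0.935).

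GID1B, the receptor with the most divergent sequence, had 15.7, 11.6 and 6.99 RPKM in 35S:NGA, 12.1, 12.8 and 6.02 RPKM in nga, and 7.64 and 6.37 RPKM in WT. The lane 8 library of each group, 35S:NGA 3 and nga 3, was at the level of WT, and the others were above it. In nga versus WT the difference was 0.44 ± 0.37 (-0.40 to 1.28; limma adjusted p = 0.408). Lane 6 leaves out nga 3, the lowest nga library, and the share of all genes called within it is not given. Within lane 6 the difference was 0.75 with a limma adjusted p of 0.0198, which is past the threshold. For 35S:NGA versus WT it was 0.58 ± 0.37 (-0.27 to 1.42; limma adjusted p = 0.397), and against nga 0.14 ± 0.33 (-0.62 to 0.89; limma adjusted p = 0.832).

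The summed level of the 3 receptors was 66.1, 53.1 and 37.9 RPKM in 35S:NGA, 59.1, 67.3 and 49.0 RPKM in nga, and 37.5 and 31.9 RPKM in WT. GID1C made up 20.9%, 18.2% and 21.3% of that sum in 35S:NGA, 31.3%, 39.3% and 24.0% in nga, and 14.4% and 10.9% in WT. Its share was highest in every nga library, intermediate in 35S:NGA and lowest in WT, with no overlap between any pair of groups. GID1A made up 55.4% to 60.3% in 35S:NGA, 41.8% to 63.7% in nga and 65.3% to 69.1% in WT. The GID1B share was 18.5% to 23.7% in 35S:NGA, 12.3% to 20.5% in nga and 20.0% to 20.4% in WT. Shares of one sum are not independent of each other and are given as a description. The coding sequences of GID1A and GID1C were 83.8% identical where aligned, with a longest identical run of 35 bases, against 70.5% for GID1A and GID1B and 71.4% for GID1B and GID1C. The labels and headers used here do not say how reads that match more than 1 gene were counted.

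**Figure D2:**
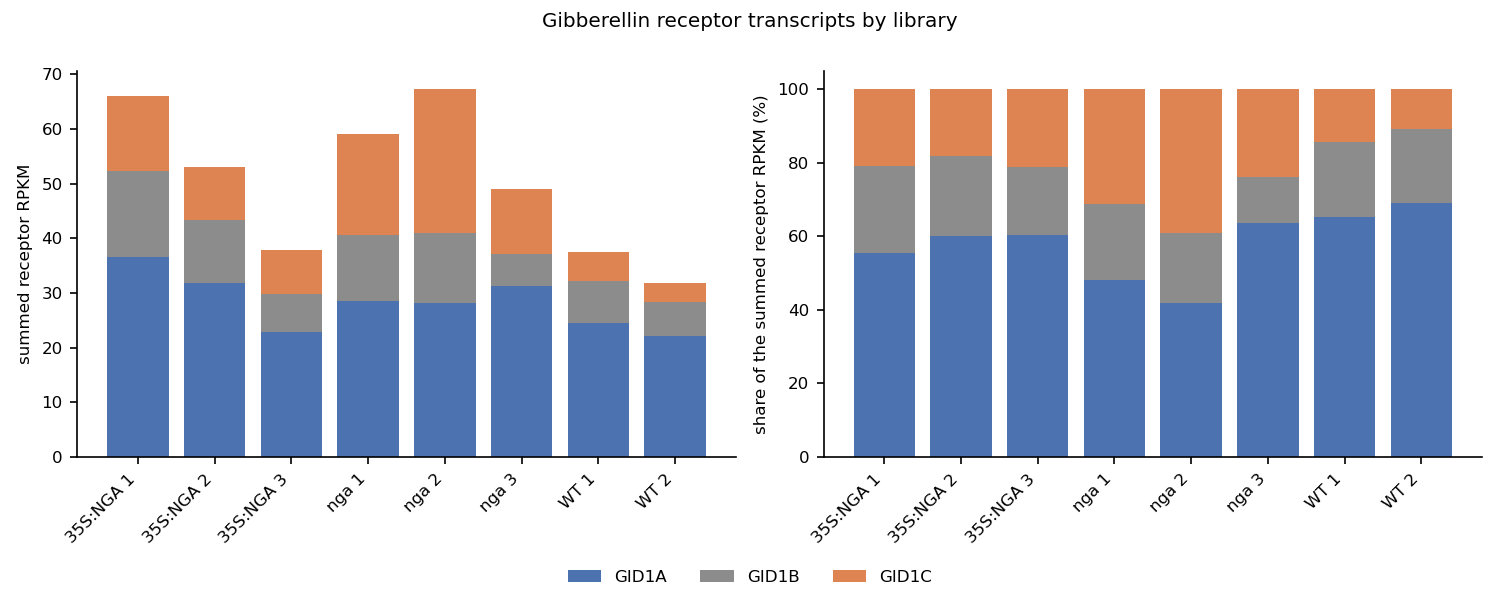
Summed RPKM of the 3 gibberellin receptors in each library (left) and the percentage of that sum in each receptor (right), as stacked bars from 0 with 35S:NGA, nga and WT from left to right. GID1C took 18.2% to 21.3% in 35S:NGA, 24.0% to 39.3% in nga and 10.9% to 14.4% in WT.

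Genes outside the pathway differed too, some in a single library and some, such as SEN1, between WT and every library of the other groups. The morning clock genes CCA1 and LHY were at 132 and 115 RPKM in nga 2, which also had the highest GID1C level, and at no more than 2.86 RPKM in any other library. Without nga 2 the GID1C difference in nga versus WT was 1.56, with a limma adjusted p of 0.0430. SEN1, known for its induction in darkness, was at 205, 35.2 and 173 RPKM in 35S:NGA, 293, 687 and 264 RPKM in nga, and 1.60 and 1.18 RPKM in WT. The low-sugar gene ASN1 was at 128, 47.9 and 137 RPKM in 35S:NGA, 489, 1210 and 291 RPKM in nga, and 47.7 and 28.2 RPKM in WT. The summed level of 6 mature pollen markers was 56.2 to 258 RPKM in 35S:NGA, 66.3 to 121 RPKM in nga and 22.0 to 52.7 RPKM in WT, with AGP11, one of them, at 0 in 6 of the 8 libraries. The sum of 8 green tissue markers was 3573 to 8171 RPKM in 35S:NGA, 3368 to 6852 RPKM in nga and 2980 to 3168 RPKM in WT, with no marker at 0. The stamen and petal markers AP3 and PI summed to 14.9 to 19.8 RPKM in 35S:NGA, 15.5 to 21.6 RPKM in nga and 19.5 to 20.3 RPKM in WT, and the 5 tapetum and microspore markers to 22.2 to 29.7, 29.9 to 51.5 and 14.4 to 30.8 RPKM in 35S:NGA, nga and WT. Within the last sum, MS2 differed between libraries of each group. It was at 4.44, 0.962 and 0.289 RPKM in 35S:NGA and 0.370, 14.0 and 0.0701 RPKM in nga. In WT 1 and 2 it was at 9.37 and 0.0831 RPKM. The part of these shifts in the GID1C result was not tested.

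Among 8017 tested genes with a symbol, the 3 whose log2(RPKM + 1) followed that of GID1C most closely over the 8 libraries were ACDO1 (AT4G31390), WRKY4 (AT1G13960) and RCAR1 (AT1G01360), with Pearson's r of 0.994, 0.991 and 0.989. RCAR1, a receptor of abscisic acid, had 23.4, 14.4 and 14.9 RPKM in 35S:NGA, 31.8, 37.1 and 20.2 RPKM in nga, and 10.1 and 7.96 RPKM in WT. WRKY4, a WRKY transcription factor, had 5.21, 4.12 and 3.51 RPKM in 35S:NGA, 6.42, 7.25 and 4.35 RPKM in nga, and 3.03 and 1.89 RPKM in WT. These values share their libraries and groups, 485 genes reached an r of 0.9 or more with GID1C, and the likeness is a description.

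The 20-oxidases, which carry out the steps before the last in hormone synthesis, did not pass the threshold in any comparison. GA20OX2 had 12.3, 18.6 and 13.8 RPKM in 35S:NGA, 17.6, 6.38 and 31.0 RPKM in nga, and 19.9 and 17.1 RPKM in WT. The nga libraries spanned the whole range of the 8, with nga 2 the lowest and nga 3 the highest. The difference was -0.25 ± 0.51 in nga versus WT (-1.43 to 0.93; limma adjusted p = 0.747), -0.31 ± 0.51 in 35S:NGA versus WT (-1.50 to 0.87; 0.761) and -0.06 ± 0.46 in 35S:NGA versus nga (-1.12 to 1.00; 0.951). All 3 intervals reach below -1, which is a 2-fold lower level. GA20OX1 had 4, 10 and 23 reads in 35S:NGA, 20, 11 and 4 reads in nga, and 11 and 9 reads in WT, at 0.116 to 0.577 RPKM. It was below the filter, and its groups overlapped in every comparison.

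GA3OX1, which makes the bioactive hormone, had 0.930, 1.52 and 2.94 RPKM in 35S:NGA, 0.933, 1.06 and 0.471 RPKM in nga, and 0.925 and 1.33 RPKM in WT. The highest library was 35S:NGA 3 and the lowest nga 3, and the groups overlapped in every comparison. The difference in 35S:NGA versus nga was 0.57 ± 0.27 (-0.06 to 1.20; limma adjusted p = 0.244). Against WT it was 0.34 ± 0.31 in 35S:NGA (-0.37 to 1.04; limma adjusted p = 0.555) and -0.23 ± 0.31 in nga (-0.94 to 0.47; 0.609).

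Of the 4 GA 2-oxidase members, GA2OX2 was the most abundant, and GA2OX8 had the fewest reads in 35S:NGA. GA2OX2 made up 78.2% to 87.0% of the summed RPKM of the 4 members in each of the 8 libraries. It had 19.4, 21.4 and 14.5 RPKM in 35S:NGA, 23.0, 23.4 and 16.2 RPKM in nga, and 13.5 and 28.0 RPKM in WT. The WT libraries were the lowest and the highest of the 8, so that all other values lay between them. Its differences were 0.07 ± 0.30 in nga (-0.63 to 0.77; limma adjusted p = 0.880) and -0.10 ± 0.30 in 35S:NGA (-0.80 to 0.60; 0.882), both against WT, and -0.17 ± 0.27 in 35S:NGA versus nga (-0.80 to 0.46; 0.739).

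GA2OX1 had 1.06, 0.855 and 1.05 RPKM in 35S:NGA, 2.87, 2.26 and 0.333 RPKM in nga, and 1.20 and 2.15 RPKM in WT. All 35S:NGA libraries were below both WT libraries, and nga 3 was below all others. The difference was -0.41 ± 0.42 in 35S:NGA versus WT (-1.37 to 0.56; limma adjusted p = 0.608), -0.04 ± 0.42 in nga versus WT (-1.004 to 0.93; 0.955) and -0.37 ± 0.38 in 35S:NGA versus nga (-1.23 to 0.50; 0.582). Without nga 3 the last of these was -0.84, with a limma adjusted p of 0.0372.

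GA2OX6 had 3.75, 3.33 and 3.00 RPKM in 35S:NGA, 2.60, 0.975 and 2.27 RPKM in nga, and 1.69 and 1.86 RPKM in WT. Each 35S:NGA library was above every library of the other groups, whereas nga and WT overlapped. The difference was 0.65 ± 0.26 in 35S:NGA versus WT (0.06 to 1.24; limma adjusted p = 0.216) and 0.61 ± 0.23 in 35S:NGA versus nga (0.08 to 1.13; limma adjusted p = 0.153). Although neither interval holds 0, neither difference passed the adjustment over all genes. In nga versus WT it was 0.04 ± 0.26 (-0.55 to 0.63; limma adjusted p = 0.923).

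GA2OX8, which acts on precursors of the hormone, had 1, 2 and 0 reads in 35S:NGA 1, 2 and 3, 11, 12 and 15 reads in nga 1, 2 and 3, and 32 and 55 reads in WT 1 and 2. In RPKM it stood at 0.0368, 0.0525 and 0 in 35S:NGA, 0.305, 0.267 and 0.473 in nga, and 0.754 and 1.37 in WT. The 3 groups did not overlap, with WT highest, nga between and 35S:NGA lowest. The read numbers were recovered from the deposited values, which were whole multiples of 1 unit in all 8 libraries to within 0.0105 reads. Summed per group and scaled to mapped reads, the 3 reads in 35S:NGA against 87 in WT gave a ratio of 0.0280, with an exact 95% interval of 0.00566 to 0.0845 that covers counting error only. The 38 reads in nga against the same 87 in WT gave 0.320 (0.213 to 0.473), and 35S:NGA versus nga gave 0.0874 (0.0173 to 0.276). The spread between libraries is not in these intervals.

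As only WT 2 reached 1 RPKM, GA2OX8 was not among the genes tested after the filter. In the limma fit without the filter, over 24534 genes, it fell in nga versus WT by 0.60 ± 0.13 on the log2 scale, with an adjusted p of 0.0370. In that fit 8.23% of all genes were called in nga versus WT, 0.135% in 35S:NGA versus WT and 3.48% in 35S:NGA versus nga. For 35S:NGA the difference was -0.99 ± 0.13 against WT (limma adjusted p = 0.0566) and -0.39 ± 0.11 against nga (0.117). With a pseudocount of 0.1, a choice made after the values were seen, the calls changed places. GA2OX8 then fell by 3.13 in 35S:NGA versus WT (limma adjusted p = 0.0232) and by 1.78 in 35S:NGA versus nga (0.0237), and the difference in nga versus WT was -1.35 (0.0508). Without the filter and with 1 library left out in turn, nga versus WT was past the threshold in 1 of 8 fits, without nga 3 (limma adjusted p = 0.0245), and the adjusted p reached 0.221 without WT 2. Likewise 35S:NGA versus WT was past it in 1 of 8, without WT 1 (0.0386).

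**Figure D3:**
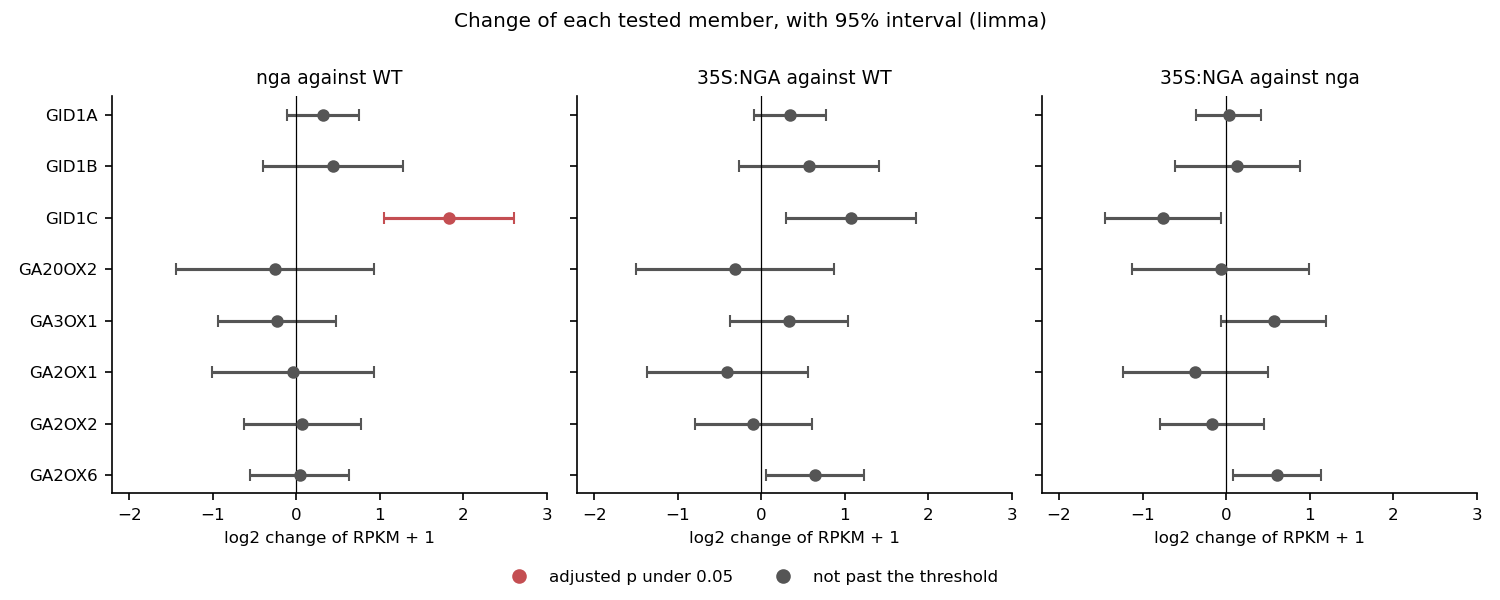
Difference of each of the 8 tested members on the log2(RPKM + 1) scale in nga versus WT, 35S:NGA versus WT and 35S:NGA versus nga, with 95% intervals from limma. Red marks the 1 difference with an adjusted p under 0.05, GID1C in nga versus WT at 1.83.

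Over the 8 members tested, 1 was called in nga versus WT, where 16.9% of all genes tested were called and 9.26% were called as higher. The share of 1 in 8 is near that of all genes called. At an unadjusted p under 0.05 there was also only GID1C, or 12.5% of the members tested, below the 36.3% of all genes. In 35S:NGA versus WT, 0 of 8 were called by limma and 0.152% of all genes were. In that comparison 2 members, GID1C and GA2OX6, had an unadjusted p under 0.05, both higher in 35S:NGA, beside 20.4% of all genes at that level. In 35S:NGA versus nga, 0 of 8 were called and 5.34% of all genes were, and 2 members had an unadjusted p under 0.05, GA2OX6 higher and GID1C lower, beside 24.7% of all genes. Both unadjusted counts of 2 in 8 are near the share over all genes. The median difference of the 8 was 0.06 in nga versus WT, 0.34 in 35S:NGA versus WT and -0.02 in 35S:NGA versus nga, beside medians over all genes of -0.00, 0.02 and 0.00. The comparisons share libraries, so the same group enters more than 1 of these values.

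In the rest of the pathway, 31 other genes were followed and 22 of them passed the filter. In nga versus WT, 4 of the 22 rose and none fell, with a median difference of 0.27. They were XERICO, SCL3, KAO2 and KAO1. For calls in either direction, a share of 4 in 22 is near the 16.9% called over all genes. Called as higher were 9.26% of all genes. At an unadjusted p under 0.05 there were 9 of the 22, 7 of them higher, beside 36.3% of all genes. None was called by limma in 35S:NGA versus WT, and 3 had an unadjusted p under 0.05, 2 of them higher, beside 20.4% of all genes. XERICO fell in 35S:NGA versus nga, and no other gene of the 22 was called there, beside 5.34% of all genes. At an unadjusted p under 0.05 there were 6 of the 22, 5 of them lower, beside 24.7% of all genes. Both shares are near those of all genes.

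KAO1 and KAO2 encode the ent-kaurenoic acid oxidases, enzymes of early gibberellin synthesis. KAO2 (AT2G32440) had 22.7, 21.9 and 17.9 RPKM in 35S:NGA, 23.8, 24.3 and 21.8 RPKM in nga, and 15.3 and 14.5 RPKM in WT. Every library of 35S:NGA and nga was above WT, and the difference was 0.61 ± 0.13 in nga versus WT (limma adjusted p = 0.0255) and 0.45 ± 0.13 in 35S:NGA versus WT (0.150). KAO1 (AT1G05160) had 11.6, 9.56 and 8.61 RPKM in 35S:NGA, 14.5, 15.6 and 13.5 RPKM in nga, and 10.2 and 8.11 RPKM in WT. The nga libraries stood above both other groups, by 0.62 ± 0.16 against WT (limma adjusted p = 0.0379), and KAO1 overlaps the neighbouring gene AT1G05170 on the same strand, so reads of the pair may be mixed. The 3 genes of the steps before them, GA1, GA2 and GA3, were not called in any comparison.

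SCL3 and XERICO are known as genes that DELLA proteins activate. SCL3 (AT1G50420), a GRAS protein that counteracts DELLA action, had 17.9, 17.2 and 11.4 RPKM in 35S:NGA, 25.2, 17.4 and 19.0 RPKM in nga, and 10.3 and 8.44 RPKM in WT. All libraries of 35S:NGA and nga were above WT, and the difference was 1.04 ± 0.23 in nga (limma adjusted p = 0.0250) and 0.65 ± 0.23 in 35S:NGA (0.185), both against WT. XERICO (AT2G04240), a RING-type protein that raises abscisic acid, had 22.5, 15.5 and 17.6 RPKM in 35S:NGA, 30.5, 29.0 and 29.3 RPKM in nga, and 16.1 and 12.8 RPKM in WT. The nga libraries lay together above all others, by 1.00 ± 0.17 against WT (limma adjusted p = 0.0156), and the difference in 35S:NGA versus nga was -0.66 ± 0.15 (0.0451). None of the 4 genes passed the threshold in nga versus WT when WT 1, WT 2 or nga 1 was left out. KAO1 and KAO2 also lost their calls without nga 2 (limma adjusted p = 0.0945 and 0.0663), and KAO1 without 35S:NGA 2 (0.0566), without the filter (0.0586) and in a fit of only nga and WT (0.0543). The XERICO call in 35S:NGA versus nga held in 8 of 18 alternatives, 2 of them among the 8 that leave out a library, and was lost without the lane 8 libraries (limma adjusted p = 0.0834) and with lane as a term (0.345).

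**Figure D4:**
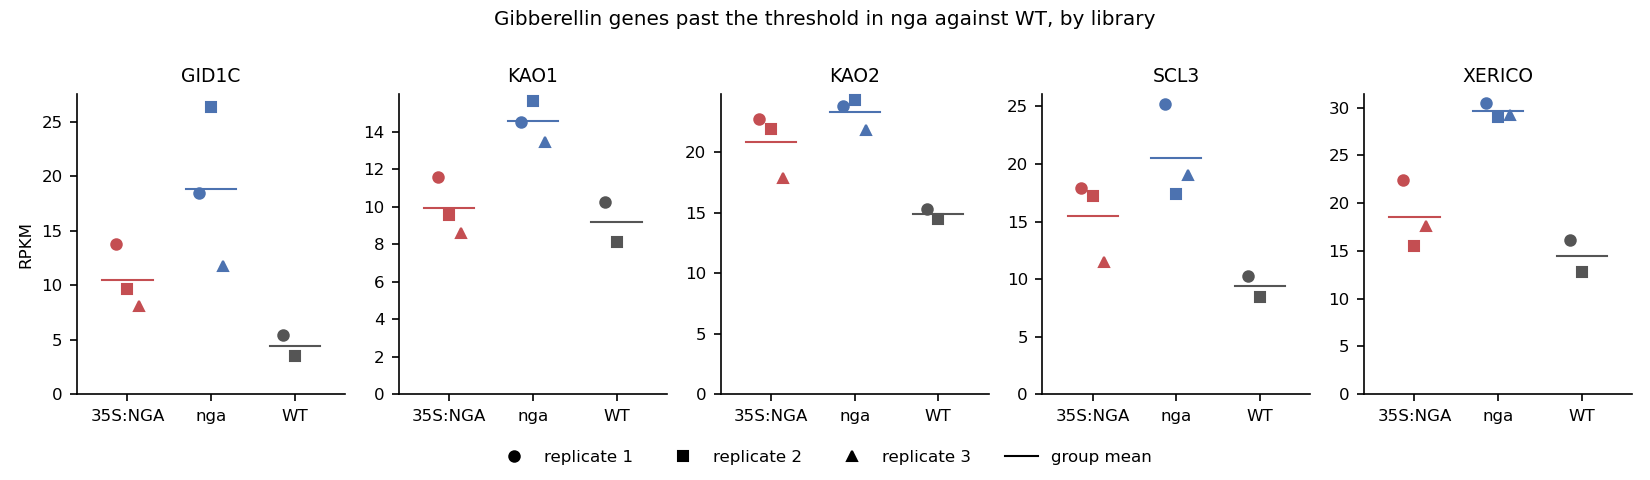
RPKM in each library of the 5 gibberellin genes past the limma threshold in nga versus WT, with points for libraries, the replicate number as the marker shape and lines for group means, each panel from 0. XERICO stood at 15.5 to 22.5 RPKM in 35S:NGA, 29.0 to 30.5 RPKM in nga and 12.8 to 16.1 RPKM in WT.

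The 5 DELLA genes GAI, RGA, RGL1, RGL2 and RGL3, whose proteins the receptors bind, were all tested and none was called by limma. Their differences ran between -0.40 and 0.75 in nga versus WT, -0.34 and 0.13 in 35S:NGA versus WT, and -0.88 and 0.42 in 35S:NGA versus nga. At an unadjusted p under 0.05 there were 2 of them in nga versus WT, none in 35S:NGA versus WT and 3 in 35S:NGA versus nga, beside 36.3%, 20.4% and 24.7% of all genes. The DELLA regulators SLY1, SNE and SPY were not called either, with 1 at an unadjusted p under 0.05, lower in nga than in WT. The other 20-oxidase and 3-oxidase genes, GA2OX3, GA2OX7 and CYP714A2 were under the filter, so that of these enzymes GA20OX2 and GA3OX1 were the only synthesis genes of their kind tested.

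**Figure D5:**
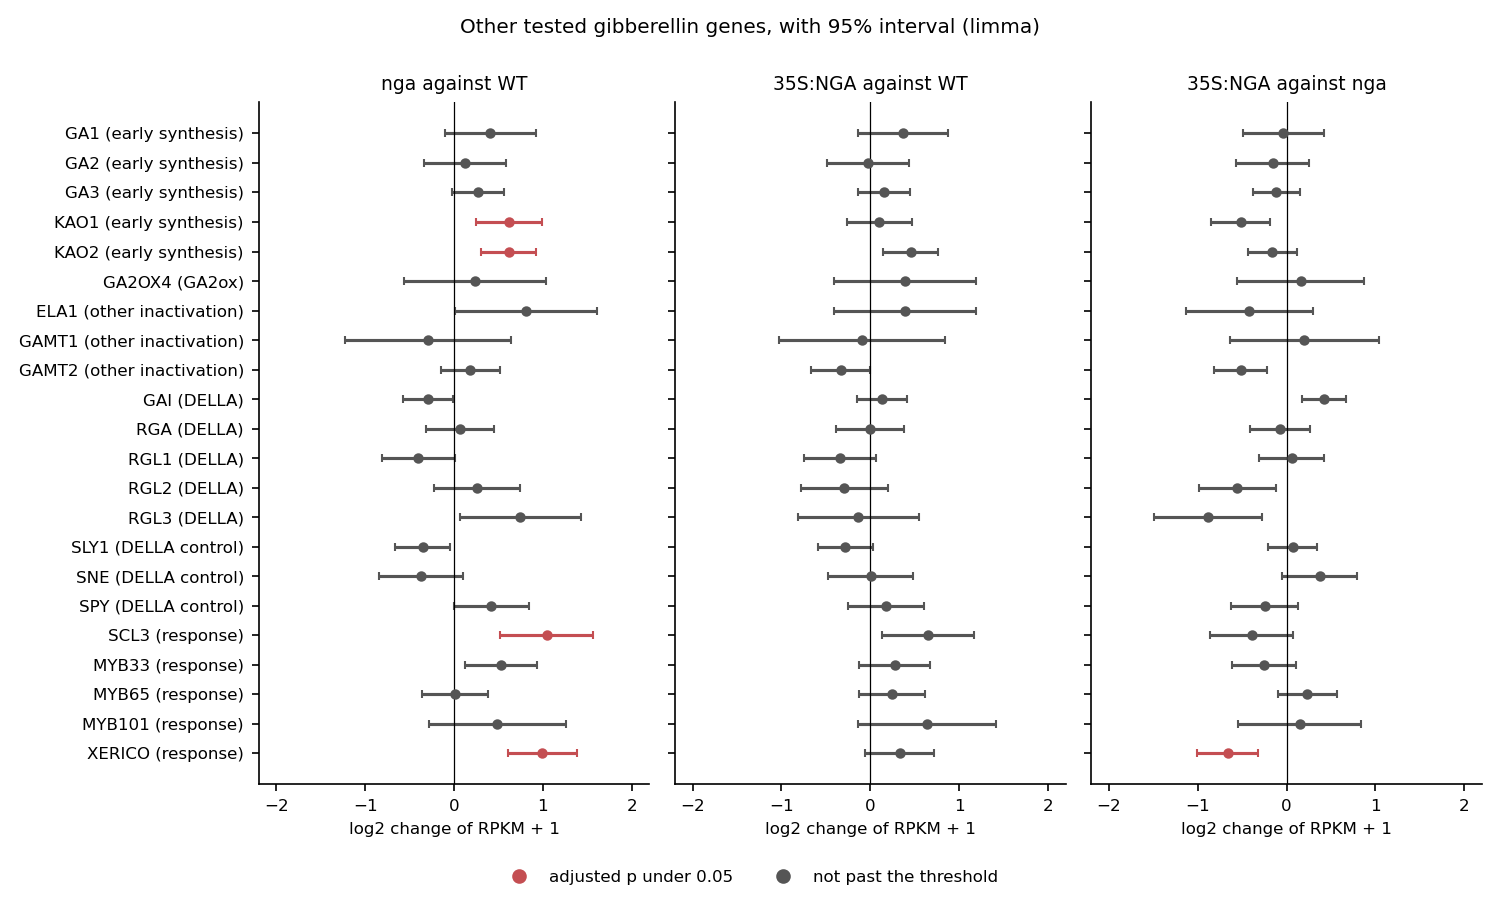
Difference of each of the 22 other gibberellin genes tested, on the log2(RPKM + 1) scale with 95% intervals from limma, in the 3 comparisons, with the role of each gene in parentheses. Red marks an adjusted p under 0.05, for KAO1, KAO2, SCL3 and XERICO in nga versus WT and for XERICO in 35S:NGA versus nga.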

How the data were processed

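RNA of carpels was measured in 8 libraries of 3 groups, taken from the sample titles. The deposited values are RPKM with decimal commas, per the file headers. TruSeq libraries were sequenced on a HiSeq instrument, per the labels' protocols, and FastQC and TAIR10 are named in the submitters' processing notes. Neither labels nor headers used here name an aligner or a counter.

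Of the deposited entries, 6374 had no gene model and stood at 0, 18 belonged to 9 loci listed repeatedly and 1 was malformed. Leaving these out gave 27197 loci. Mapped reads per library were recovered from low values that were whole reads, to within 1% of the read number. The lowest depth with a share of such values near the best was taken. At that depth 37.2% to 43.1% of low values were whole, against 3.24% to 3.57% at other depths, as exon lengths were taken from the reference. The 5 scarce members' reads were taken with 1 unit per gene. As the values are RPKM, log2(RPKM + 1) of 17786 genes in all 8 libraries entered 1 limma fit (3.58.1, R 4.3.3) with a mean-variance trend, adjusted per comparison by Benjamini and Hochberg and tested on simulated data.

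All members were named. Of the other gibberellin genes those called were named, with the 3 genes most like each called member. The members, gene lists and motifs were chosen with earlier results of these data known. Of the listed names, 2 were left out because the reference does not give that name for their locus. For gene placement, TAIR10.1 was used, and 287 of 290 entries with coordinates in the files contained the reference gene. Upstream windows of the other members are not reported here. Alternatives were other pseudocounts, filters, scalings and fits, the lane, the replicate number as a block and leaving out each library. Fits without the filter combined with another choice were added after the values were seen. The other tools were matplotlib 3.10.9, scipy 1.17.1, pandas 2.3.3, numpy 2.4.6 and Python 3.11.15.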

Additional observations from a re-analysis of the deposited data

How the results depend on the processing

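GID1C was higher in nga versus WT in all 19 alternatives, at 1.30 to 2.11 on the log2 scale, and called in 16 of them. As every nga library was above both WT libraries, leaving out a library or changing the filter or pseudocount could not reverse this direction. The fits with lane as a term, of lane 6 only and without the lane 8 libraries take the nga versus WT difference from the same libraries. The alternatives are thus not separate checks. Of the members, 2 in place of 1 were called in nga versus WT without the filter (GA2OX8 and GID1C) and with the replicate block, the lane as a term, lane 6 only or without the lane 8 libraries (GID1B and GID1C in each). Leaving out 1 library gave 0 to 1 there, 0 to 2 in 35S:NGA versus nga, where GA2OX1 and GID1C passed without nga 3, and 0 in 35S:NGA versus WT. Of the other gibberellin genes, 4 in nga versus WT became 7 with the replicate block, the lane as a term or without the lane 8 libraries, 1 (SCL3) at a minimum of 2-fold, and 0 to 6 with 1 library left out. The 1 in 35S:NGA versus nga became 2 under quantile normalization or equal library medians, 0 without the filter, in a fit of only these 2 groups, without the lane 8 libraries, with the lane as a term or at 2-fold, and 0 to 1 with 1 library left out. The share of all genes called in each of these fits was not set beside the counts, so a changed count is not a result about these genes in particular. The cause of these shifts was not tested. The scalings moved the median over all genes by less than 0.1.

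Reversals were of differences not called in either fit. With the lane as a term, GID1A was at -0.16 in 35S:NGA versus WT and -0.43 against nga, GA2OX1 at 0.43 in nga versus WT, 1.05 in 35S:NGA versus WT and 0.62 against nga, GA2OX2 at 0.084 in 35S:NGA versus WT and GA2OX6 at -0.057 in nga versus WT. The GA2OX1 and GA2OX6 values in nga versus WT were the same in lane 6 only and without the lane 8 libraries. Without the lane 8 libraries GA20OX2 was at 0.46 in 35S:NGA versus nga and GA2OX2 at 0.059 in 35S:NGA versus WT. A pseudocount of 5 put GA2OX1 at 0.016 in nga versus WT. With the replicate block GA2OX1 was at 0.19 in nga versus WT and GA2OX2 at 0.063 in 35S:NGA versus WT. Without the filter and the lane 8 libraries GA20OX1 was at -0.042 in 35S:NGA versus WT and -0.20 against nga. With 1 library left out, differences in nga versus WT ran between -0.73 and 0.33 for GA20OX2, -0.34 and 0.43 for GA2OX1, -0.42 and 0.57 for GA2OX2, -0.13 and 0.31 for GA2OX6, and -0.064 and 0.15 for GA20OX1. For 35S:NGA versus WT they ran between -0.59 and 0.40 for GA2OX2, -0.049 and 0.25 for KAO1, and -0.042 and 0.20 for GA20OX1. In 35S:NGA versus nga they ran between -0.11 and 0.22 for GID1A, -0.18 and 0.42 for GID1B, -0.64 and 0.42 for GA20OX2, and -0.10 and 0.16 for GA20OX1, which was at -0.059 without nga 3.

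The labels do not say that replicate numbers pair the samples. The deviations of same-numbered libraries correlated between -0.26 and 0.37, and those of differently numbered libraries between -0.37 and 0.26. As the deviations of the 2 WT libraries mirror each other, this check cannot exclude pairing. The block values are therefore not read as a weaker or stronger effect. With 2 WT libraries, each test rests on a spread shared by all groups, and a library left alone in WT is assumed to vary like the others. Depth limits GA20OX1 and GA2OX8, with at most 23 and 55 reads in a library.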
